A study of Mus musculus with 4 samples.

Results

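The comparison described here sets the marrow of mice given Astragalus membranaceus, a medicinal root called astragalus below, against the marrow of mice given cisplatin, a platinum compound that joins DNA strands and harms blood-forming cells. Each group was measured on 1 Affymetrix array, and the 2 arrays compared are 2 of the 4 in the series; the others hold control marrow and marrow after electro-acupuncture. Per the labels' protocols, tibia marrow was spun out of the bone after 2 weeks of treatment, Trizol was used for the extraction, and 6 ug of total RNA went into each biotin-labelled cRNA. The design text gives n = 6 for the mixing of marrow, read here as 6 per group, which it does not say outright. The sources used here give no dose, and no age or strain of the mice is used; the labels do not say whether the astragalus mice received cisplatin too. With 1 array of pooled marrow per group there is no replicate check, so no test was run and every difference is described by its size alone.

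A transcript cluster is a set of probes for 1 transcript or locus, and its deposited value is a log2 signal. A gene was compared when it had a cluster named for it alone and the mean over the 4 arrays reached 5.235, the median of all clusters. Where a gene had several such clusters the one with the highest mean was used. This left 17208 of 30702 named genes, 11233 of them protein-coding, and these come first below. A difference is the astragalus value minus the cisplatin value, on the log2 scale, and a gene is said to differ at least 2-fold when the difference is at least 1 in size. Levels are given in the order control, cisplatin, astragalus, electro-acupuncture, and they place 1 gene across arrays, not 1 gene against another.

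Bone marrow makes red cells, white cells and platelets from stem cells through intermediates that divide rapidly, and a drug that damages DNA acts first on those dividing intermediates. Red cell precursors build blood group proteins, a spectrin skeleton and hemoglobin during their last divisions, while neutrophil precursors fill their granules in an ordered series. The marrow also holds bone-forming cells, stroma, fat cells and sinusoidal vessels that support the blood cells. In bulk RNA of this kind, fewer cells of a type and less RNA per cell cannot be told apart.

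In the astragalus array, genes of cell division, red cells, mitochondria, proteasome and later neutrophil granules were higher than in the cisplatin array. Median log2 differences were 0.475 for cell division, 0.485 for red cell lists, 0.325 for mitochondria, 0.655 for the proteasome and 0.605 for the granules. All protein-coding genes had a median of 0.07. With the trend by signal level removed, as described below, the group medians in that order were 0.231, 0.164, 0.161, 0.347 and 0.314. The median of all protein-coding genes was then 0.009. Immediate early genes were lower in 18 of 22, with Fos 10.3-fold lower. In 2 smaller sets, 5 of 13 bone matrix genes and 3 of 5 apolipoprotein L genes were at least 2-fold lower. Both sets were split, since 6 of the 13 and 1 of the 5 were higher. Of 11233 protein-coding genes 128 differed at least 2-fold (1.14%): 104 were at least 2-fold higher in astragalus (0.926%) and 24 were at least 2-fold lower (0.214%). Those just inside the threshold had differences of 1.00, in 7 genes, and -1.04, in 1 gene, and those just outside had 0.99, in 12 genes, and -0.99, in 1 gene.

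The astragalus array had a wider spread of values than the other 3, and this moves with the brightness of a gene. Its range between the 5th and 95th percentiles was 7.20 against 6.80 to 6.83 on the others, with a median of 5.15 against 5.26 to 5.31. When the protein-coding genes were put into 10 groups of like size by the mean of the 2 arrays, the median difference went from -0.08 in the dimmest group to 0.42 in the brightest. Of the 104 higher genes 74 lay in that brightest group and 18 in the next. Of all protein-coding genes 60.7% lay above 0 and 37.1% below it. A smooth trend of the difference on the level was therefore fitted by loess over all genes compared and taken off, and most group medians and the differences of some genes are also given with the trend removed, as log2 values unless a fold is named. By construction that takes out anything that bright genes as a class share, and on simulated data it made large differences somewhat smaller than they were set. Then 56 protein-coding genes differed at least 2-fold (0.499%): 21 protein-coding genes were at least 2-fold higher (0.187%), all among the 104, and 35 were at least 2-fold lower (0.312%), among them 23 of the 24. Higher genes made up 81.2% of the protein-coding genes at least 2-fold different as deposited, 57.5% after quantile normalization, 37.5% with the trend removed, 47.2% with the astragalus array rescaled to the cisplatin range and 91.7% with each array centred on its median. That centring moved the median protein-coding difference from 0.07 to 0.18.

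**Figure D1:**
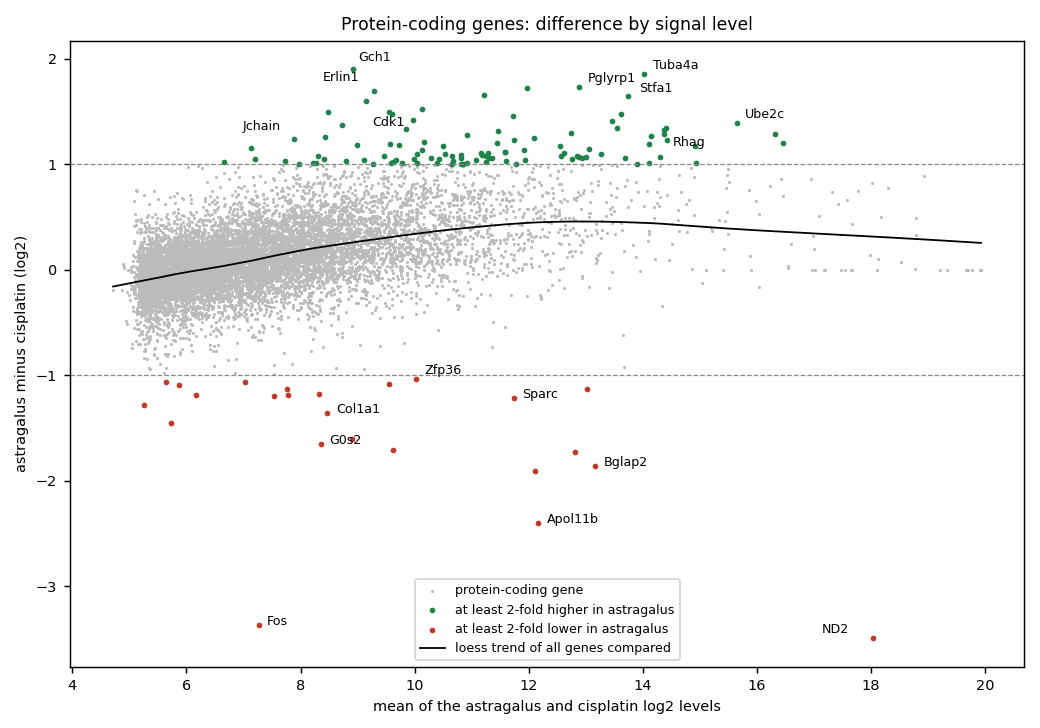
Each point is 1 protein-coding gene; the horizontal axis is the mean of its astragalus and cisplatin log2 levels and the vertical axis its log2 difference, astragalus minus cisplatin, with the fitted trend as a line and the 2-fold limits marked. The cloud climbs with level, from a median of -0.08 in the dimmest of 10 groups to 0.42 in the brightest. Fos, ND2 and the bone matrix genes Bglap2, Col1a1 and Sparc lie far below the cloud.

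The brightest values have a further limit. The files' values end at 19.93, and a gene within 0.1 of that is called at the ceiling here. On both the cisplatin and astragalus arrays 44 of the genes compared lay there, and 9 of these were protein-coding. Of the 71 protein-coding genes with a mean level of at least 15, 26 had the same value to 2 decimals on the cisplatin and astragalus arrays (36.6%), against 2.2% of all protein-coding genes, and 23 had it on all 3 treated arrays, a count looked up after the values were seen. Actb (cytoskeletal actin) read 17.55 in control and 17.67 on each of the other 3, so it gives no scale for the others. Gapdh, a glycolytic enzyme, read 10.65, 11.27, 11.34 and 11.27, a difference of 0.07 that was -0.35 with the trend removed.

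The marrow label was checked against marker genes. Red cell genes (Alas2, the first enzyme of heme synthesis, at 14.64, 14.99, 15.39 and 15) and neutrophil genes (Mpo, the myeloperoxidase of primary granules, at 11.70, 12.80, 13.75 and 13.25) were bright on every array. Most markers of tissue around the marrow lay near the floor, and none of the 11 muscle and cartilage genes above it differed 2-fold, with a median of 0.04. Acta1, the actin of skeletal muscle, read 5.77, 5.76, 5.80 and 5.78, and the cartilage collagen Col2a1 was below the floor. The brightest was Tnnt1, the troponin T of slow muscle fibres, at 7.06, 7.39, 7.25 and 7.17, alike on all 4 arrays. Mylpf, a muscle light chain, had the largest difference of these genes, 0.67, at levels of 5.16, 5.17, 5.84 and 5.41.

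Cell division genes were higher in the astragalus array as a group. Of 222 measured in 9 lists, 204 were higher and 16 lower, 12 were at least 2-fold higher (1 with the trend removed, Ube2c) and none 2-fold lower, and the median difference was 0.475 against 0.07 for all protein-coding genes. With the trend removed the median was 0.231 against 0.009, and 176 of the 222 stayed above 0. Astragalus was the highest of the 4 arrays for 78.8% of them, against 37.6% of all protein-coding genes. Counts of the highest array, here and below, are not corrected for the level trend, and bright genes tended to read higher on the astragalus array. Cytosolic ribosomal protein genes reached 26 of 34, though their median was -0.055 with the trend removed. The lists and the genes in them were chosen with earlier results of these data known, so these counts are descriptions.

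The largest differences were in mitosis. All 17 mitotic kinases and cyclins were higher, with a median of 0.73 (0.434 with the trend removed), and astragalus was the highest array for each of the 17. Cdk1, the kinase that starts mitosis, read 10, 9.56, 10.77 and 9.97, a difference of 1.21 (0.86 with the trend removed). The cisplatin array was lowest there and the astragalus array stood apart from the other 3. Bub1b, a checkpoint kinase that delays chromosome separation, read 9.82, 9.57, 10.70 and 10.17, again highest in astragalus. Ccnb2, a mitotic cyclin, read 11.03, 11.20, 12.17 and 11.20, with cisplatin and electro-acupuncture alike and control only slightly below. Plk1, a kinase of spindle assembly, differed by 0.97 and Aurkb, which corrects chromosome attachment, by 0.87.

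Spindle motors and cytokinesis genes, which pull chromosomes apart and divide the cell, were higher in 27 of 27, with a median of 0.71 (0.391 with the trend removed). Kif11, the motor that pushes spindle poles apart, read 12.93, 12.09, 13.39 and 12.74, a difference of 1.30 (0.84 with the trend removed). Kif14, Ckap2, Nusap1 and Dlgap5 were the others at least 2-fold higher, at 1.06, 1.04, 1.01 and 1.00. For each of the 27 the cisplatin value lay below the control value, with a median of -0.52, and the astragalus value stood above control by a median of 0.22. The electro-acupuncture array, compared with the same cisplatin array, had a median of 0.10 for this list.

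Condensin, cohesin and topoisomerase genes, which fold, hold and untangle chromosomes, were higher in 21 of 21, with a median of 0.66 (0.278 with the trend removed). Rad21, the cohesin subunit that is cleaved at anaphase, read 14.26, 13.76, 14.83 and 14.23, a difference of 1.07. Top2a, the topoisomerase of dividing cells, read 15.21, 14.43, 15.44 and 15, a difference of 1.01. Mki67, the common marker of cycling cells, read 17.97, 17.61, 18.43 and 17.89. In Rad21, Top2a and Mki67 the cisplatin array was lowest and the astragalus array highest.

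The anaphase-promoting complex and its partners, which mark mitotic proteins for destruction, were higher in 18 of 19, with a median of 0.42 (0.11 with the trend removed). The largest differences in that list were in 2 partners of the complex. Ube2c, the ubiquitin-conjugating enzyme that feeds the complex, read 15, 14.95, 16.34 and 15.58, 2.62-fold higher in astragalus than in cisplatin. Pttg1, the securin that the complex destroys, differed by 1.02, while the core subunits Anapc4 and Anapc11 differed by -0.05 and 0.02. Centromere and kinetochore genes were higher in 33 of 36 with no 2-fold member, a median of 0.445 (0.164 with the trend removed) and Birc5 and Nsl1 leading at 0.95 each.

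Replication origin and helicase genes were higher in 23 of 25 (median 0.48, 0.283 with the trend removed), led by Gmnn, an inhibitor of origin licensing, at 0.98 and Mcm4, a helicase subunit, at 0.94. Replication fork and polymerase genes were higher in 21 of 27 (median 0.37, 0.21 with the trend removed), with Rpa2, which coats single-stranded DNA, at 0.85 and the sliding clamp Pcna at 0.76. Nucleotide supply genes were higher in 24 of 25 (median 0.36, 0.241 with the trend removed). In that list Rrm1, the large subunit of ribonucleotide reductase, read 12.14, 12.07, 13.18 and 12.64, a difference of 1.11. G1 cyclins, E2F factors and cell cycle inhibitors had the lowest median of the 9 lists, 0.30 (0.042 with the trend removed), with 20 higher and 5 lower. Among its inhibitors Cdkn1a, the p53 target p21, read 6.64, 8.76, 8.03 and 8.27, a difference of -0.73, and Cdkn3, a phosphatase of cyclin-dependent kinases outside the lists, read 10.13, 9.19, 10.52 and 9.67, a difference of 1.33.

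The promoters of several of these genes are shown because mitotic genes are known to share a cell cycle homology region, or CHR, and CCAAT boxes near the start site. The sequences are RefSeq's on GRCm38.p6, from 120 bases before to 20 bases after the annotated start, read along the gene 5′ to 3′; the window and the genes were chosen after their values were seen, and the genes shown are ones with a match in the window. Capitals mark matches on either strand to the CHR (TTTGAA or TTCGAA) or to the CCAAT box (CCAAT). They are Ube2c at chr2:164769809-164769948 on the plus strand, Kif11 at chr19:37376262-37376401 on the plus strand, Cdk1 at chr10:69352893-69353032 on the minus strand and Ccnb2 at chr9:70421535-70421674 on the minus strand.
Ube2c: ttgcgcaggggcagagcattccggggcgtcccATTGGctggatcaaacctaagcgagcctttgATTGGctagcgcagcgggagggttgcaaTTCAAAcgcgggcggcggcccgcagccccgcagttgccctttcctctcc
Kif11: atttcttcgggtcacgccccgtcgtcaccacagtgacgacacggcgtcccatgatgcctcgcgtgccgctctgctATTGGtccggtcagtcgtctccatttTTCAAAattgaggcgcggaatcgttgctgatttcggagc
Cdk1: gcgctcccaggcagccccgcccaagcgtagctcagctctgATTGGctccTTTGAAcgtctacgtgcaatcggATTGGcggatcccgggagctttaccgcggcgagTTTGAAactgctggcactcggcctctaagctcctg
Ccnb2: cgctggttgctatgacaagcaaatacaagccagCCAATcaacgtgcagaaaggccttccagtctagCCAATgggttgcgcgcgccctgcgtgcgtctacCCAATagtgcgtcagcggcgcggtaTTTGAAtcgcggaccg

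Of 5 other promoters looked at in this window, Top2a also held a CHR, at -23 to -18, whereas Bub1b and Plk1 held one only outside it and Rrm1 and Rrm2 held none. In the 4 promoters shown a CHR lay close to the start, from -29 to -24 in Ube2c, -19 to -14 in Kif11, -15 to -10 in Cdk1 and 5 to 10 in Ccnb2, counted from the start base as 1 with no position 0, and 1 or more CCAAT boxes lay before it. Over windows of 250 bases before to 50 after the start, 20 of the 23 spindle motor and cytokinesis genes with a promoter in the table held a CHR (87.0%), 9 of 13 mitotic kinases and cyclins (69.2%) and 16 of 31 centromere and kinetochore genes (51.6%). Across all cell division lists 73 of 185 promoters held it (39.5%), against 14.7% of the 9226 promoters of protein-coding genes compared and 19.4% of all 27025. Replication fork genes held it in 1 of 22 (4.55%) and carried an E2F motif (TTTCCCGC or TTTGGCGC) in 6 of 22 (27.3%), against 3.02% of the protein-coding genes compared. Among the 104 protein-coding genes at least 2-fold higher, 23 of 88 promoters held a CHR (26.1%) and 48 of 88 a CCAAT box (54.5%), against 39.1% of the protein-coding genes compared for the latter. Among the 24 at least 2-fold lower, 4 of 18 held a CHR (22.2%) and 8 of 18 a CCAAT box (44.4%). A match states only that these letters are in the window.

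**Figure D2:**
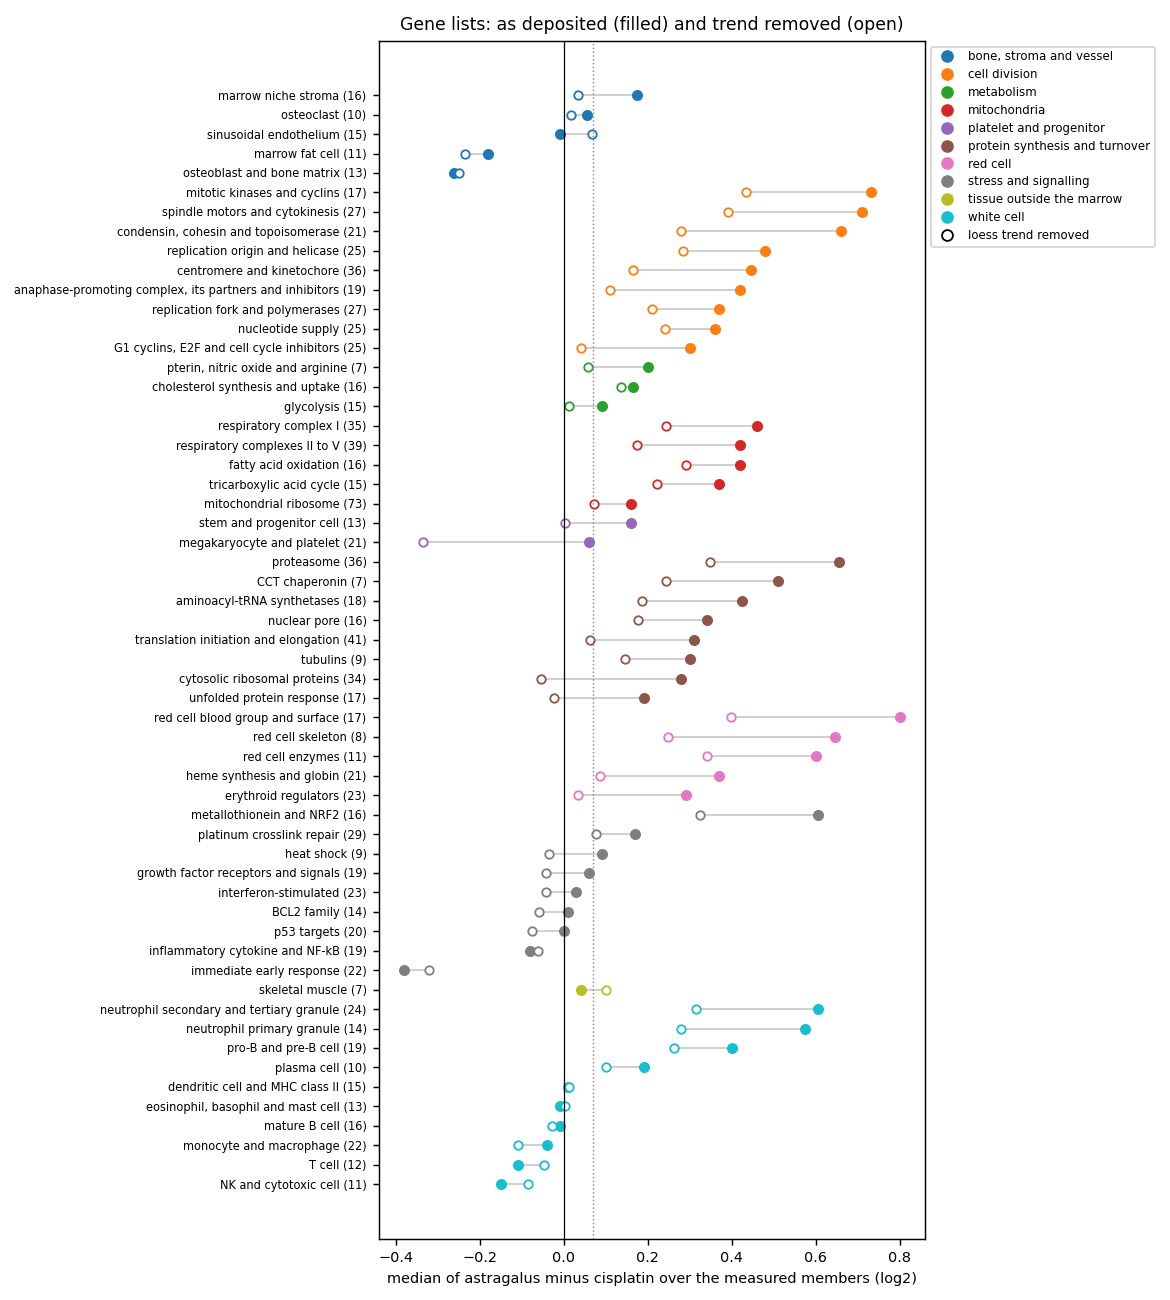
Each row is 1 gene list; filled points give its median log2 difference, astragalus minus cisplatin, as deposited, open points the same with the level trend removed, and the dotted line the median of all protein-coding genes, 0.07. Red cell surface, at 0.80, and mitotic kinases, at 0.73, lie farthest to the right, and the immediate early list, at -0.38, farthest to the left.

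Red cell genes were higher in 75 of 80, with 9 at least 2-fold higher (0 with the trend removed), none 2-fold lower and a median of 0.485 (0.164 with the trend removed). Astragalus was the highest of the 4 arrays for 82.5% of them, a share not corrected for the level trend. The size depended on the kind of gene, with surface proteins and enzymes ahead of heme synthesis and of the transcription factors. Adult globin chains have no cluster named for 1 gene and were not compared.

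Blood group and surface genes were higher in 16 of 17, with a median of 0.80 (0.399 with the trend removed). The exception was Cd24a, equal at 19.66 on all 4 arrays. Rhag, a partner of the Rh blood group protein, read 13.48, 13.72, 15.04 and 14.37, a difference of 1.32 (0.89 with the trend removed). Ermap, an erythroid membrane protein, read 14.20, 13.81, 15.04 and 14.30, a difference of 1.23. Aqp1, the water channel of the red cell membrane, read 10.93, 10.84, 12.04 and 11.42, a difference of 1.20. In Rhag, Ermap and Aqp1 astragalus stood above each of the other 3 arrays. Rhd, the Rh blood group protein itself, read 10.53, 9.91, 11.08 and 10.58, with a lower cisplatin value, and Kel, the Kell blood group protein, read 14.10, 13.16, 13.93 and 13.27, with astragalus still slightly below control. Slc4a1, the anion exchanger that is the main protein of the membrane, differed by 0.90.

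Red cell skeleton genes were higher in 7 of 8, with a median of 0.645 (0.248 with the trend removed). Sptb, the beta chain of spectrin, read 10.19, 9.98, 11.08 and 10.34, a difference of 1.10. Red cell enzymes were higher in 11 of 11, with a median of 0.60 (0.34 with the trend removed). Car1, a carbonic anhydrase abundant in red cells, read 13.37, 12.35, 13.42 and 13.03, so that astragalus stood at the control level and cisplatin alone was low. Cat, the catalase that breaks down hydrogen peroxide, read 9.44, 9.46, 10.51 and 10.29, so that both control and cisplatin were low.

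Heme synthesis genes were higher in 21 of 21 but none reached 2-fold, and their median was 0.37 (0.087 with the trend removed). Fech, which inserts iron into heme, led with 0.82, at 12.24, 12.68, 13.50 and 12.71. Alas2 differed by 0.40, all of it within the level trend (0.00 with the trend removed). Among 23 erythroid regulators 20 were higher, with a median of 0.29 (0.033 with the trend removed). Trim10, an erythroid ubiquitin ligase, differed by 1.12 and Klf1, the factor that drives adult globin and blood group genes, by 0.80, at 9.82, 9.55, 10.35 and 10.04. Epor, the erythropoietin receptor, differed by 0.29 and Kit, the stem cell factor receptor, by 0.06.

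Promoters of 3 red cell surface genes are shown because GATA1 is known to act through GATA motifs in erythroid genes. They come from the same table, build and window, and capitals mark matches to AGATAA or TGATAA on either strand. Rhag lies at chr17:40811029-40811168 on the plus strand, Ermap at chr4:119189976-119190115 on the minus strand and Rhd at chr4:134864416-134864555 on the plus strand.
Rhag: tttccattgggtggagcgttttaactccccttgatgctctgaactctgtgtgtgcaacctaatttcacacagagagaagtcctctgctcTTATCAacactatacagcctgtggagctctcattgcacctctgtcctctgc
Ermap: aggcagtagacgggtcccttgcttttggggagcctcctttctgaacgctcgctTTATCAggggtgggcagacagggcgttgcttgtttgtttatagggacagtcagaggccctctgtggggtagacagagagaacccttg
Rhd: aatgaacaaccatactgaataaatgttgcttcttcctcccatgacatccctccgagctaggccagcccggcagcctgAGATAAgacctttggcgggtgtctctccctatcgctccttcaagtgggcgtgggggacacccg
Each held 1 match, at -31 to -26, -67 to -62 and -43 to -38, and was chosen for it; Aqp1 and Sptb, looked at in the same window, held none. Over the 300-base windows 17 of 61 red cell promoters held a GATA motif (27.9%), against 11.6% of the protein-coding genes compared and 19.0% of all promoters. The CACCC motif of Klf1 (CCACACCC) was in 1 of 61 (1.64%), against 3.8% of the protein-coding genes compared.

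Among genes for mitochondria 158 of 180 were higher, with 9 at least 2-fold higher (2 with the trend removed), 1 at least 2-fold lower and a median of 0.325 (0.161 with the trend removed). Complex I, which passes electrons from NADH into the respiratory chain, was higher in 34 of 35, with a median of 0.46 (0.243 with the trend removed). Ndufa9, a subunit at its quinone site, read 7.94, 8.05, 9.42 and 9.37, with both treated arrays other than cisplatin far above control and cisplatin. Ndufb4b, a copy of an accessory subunit that may share signal with its relatives, read 10.38, 10.99, 12.45 and 11.89. Ndufa4, now known to belong to complex IV and kept in the list under its name, differed by 1.01. For this list the cisplatin values were already above control by a median of 0.26, and the astragalus values by 0.82.

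Complexes II to V were higher in 38 of 39, with a median of 0.42 (0.174 with the trend removed). Cox7a2, a subunit of cytochrome oxidase, differed by 1.04, at 10.34, 11.42, 12.46 and 12.25. Atp5b, the catalytic subunit of ATP synthase, read 9.98, 10.34, 11.34 and 11.27. In both genes astragalus and electro-acupuncture lay close together, above control and cisplatin. Tricarboxylic acid cycle genes were higher in 14 of 15 (median 0.37, 0.223 with the trend removed), with citrate synthase, Cs, at 1.11 and malate dehydrogenase, Mdh2, at 1.01. Fatty acid oxidation genes were higher in 15 of 16 (median 0.42, 0.291 with the trend removed), led by Etfa, an electron carrier, at 0.99.

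Mitochondrial ribosome genes were higher in 57 of 73 with a median of only 0.16 (0.071 with the trend removed), and Mrpl34 alone reached 2-fold, at 1.02. Genes encoded in the mitochondrial genome could hardly be compared, since ND3, ND6 and COX1 lay at the ceiling on all 4 arrays. ND2, a complex I subunit encoded there, read 18.23, 19.79, 16.30 and 17.71, the largest protein-coding difference of all at -3.49, with the cisplatin value close to the ceiling. The mitochondrial lysine tRNA gene mt-Tk read 14.08, 16.07, 12.86 and 13.28, a difference of -3.21, also with cisplatin the highest and astragalus the lowest of the 4. COX2 read 12.97 on 3 arrays and 12.89 in astragalus.

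Glycolysis genes differed little, with 11 of 15 higher and a median of 0.09 (0.013 with the trend removed); Pgk1, which makes ATP in the pathway, had the largest difference at 0.74. Cholesterol synthesis and uptake genes were higher in 13 of 16, with a median of 0.165 (0.136 with the trend removed), led by Nsdhl at 0.62. The single largest difference above 0 among the named protein-coding genes belonged to Gch1, the first enzyme of tetrahydrobiopterin synthesis, a cofactor of nitric oxide synthases. Gch1 read 9.37, 7.97, 9.87 and 8.59, 3.73-fold higher in astragalus than in cisplatin (3.12-fold with the trend removed), with cisplatin the lowest array by 0.62. Its pathway did not share that size, since the median of 7 pterin, nitric oxide and arginine genes was 0.20, with Pts at 0.20, Spr at 0.06 and Qdpr at 0.03.

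Genes for protein synthesis and turnover were higher in 160 of 178, with 11 at least 2-fold higher (2 with the trend removed), none 2-fold lower and a median of 0.405 (0.152 with the trend removed). The proteasome, the complex that degrades ubiquitin-marked proteins, was higher in 35 of 36, with a median of 0.655 (0.347 with the trend removed), and 27 of the 36 were highest in astragalus. Psma2, a subunit of its outer ring, read 10.06, 10.28, 11.56 and 11.25, a difference of 1.28. Psma5 read 10.97, 11.97, 13.14 and 13.32 and Psmb7, a catalytic subunit, 9.86, 10.64, 11.73 and 11.87, so electro-acupuncture was the highest array for both. Psmd5, an assembly chaperone, was the fourth member at least 2-fold higher, at 1.00. The interferon-inducible catalytic subunits Psmb8 and Psmb9 differed by 0.17 and 0.28. For this list cisplatin stood above control by a median of 0.21, astragalus above control by 0.84, and electro-acupuncture above cisplatin by 0.465.

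Cytosolic ribosomal protein genes had a median of 0.28, but that turned to -0.055 with the trend removed and to -0.006 with the astragalus array rescaled, so no direction is given for the family. Rpl32l, Rps26, Fau and Rpl8 were at least 2-fold higher, at 1.48, 1.20, 1.17 and 1.13, in a family with many near-identical copies that can share signal; the mean of the clusters of Fau gave 0.89. Translation initiation and elongation genes were higher in 37 of 41 (median 0.31, 0.062 with the trend removed), with Eif3m, a subunit of the initiation factor that binds the small ribosomal subunit, at 1.05. Aminoacyl-tRNA synthetases were higher in 17 of 18 (median 0.425, 0.187 with the trend removed), led by Gars, the glycine enzyme, at 0.89. The CCT chaperonin, which folds actin and tubulin, was higher in 7 of 7 (median 0.51, 0.243 with the trend removed), with Cct2 at 0.76. Nuclear pore genes were higher in 16 of 16 (median 0.34, 0.177 with the trend removed). The unfolded protein response list had 14 of 17 higher and a median of 0.19 (-0.023 with the trend removed), with Asns leading at 0.73, while the ER chaperone Hspa5 differed by 0.09 (-0.28 with the trend removed) and Ppib, an ER proline isomerase outside that list, by 1.42.

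**Figure D3:**
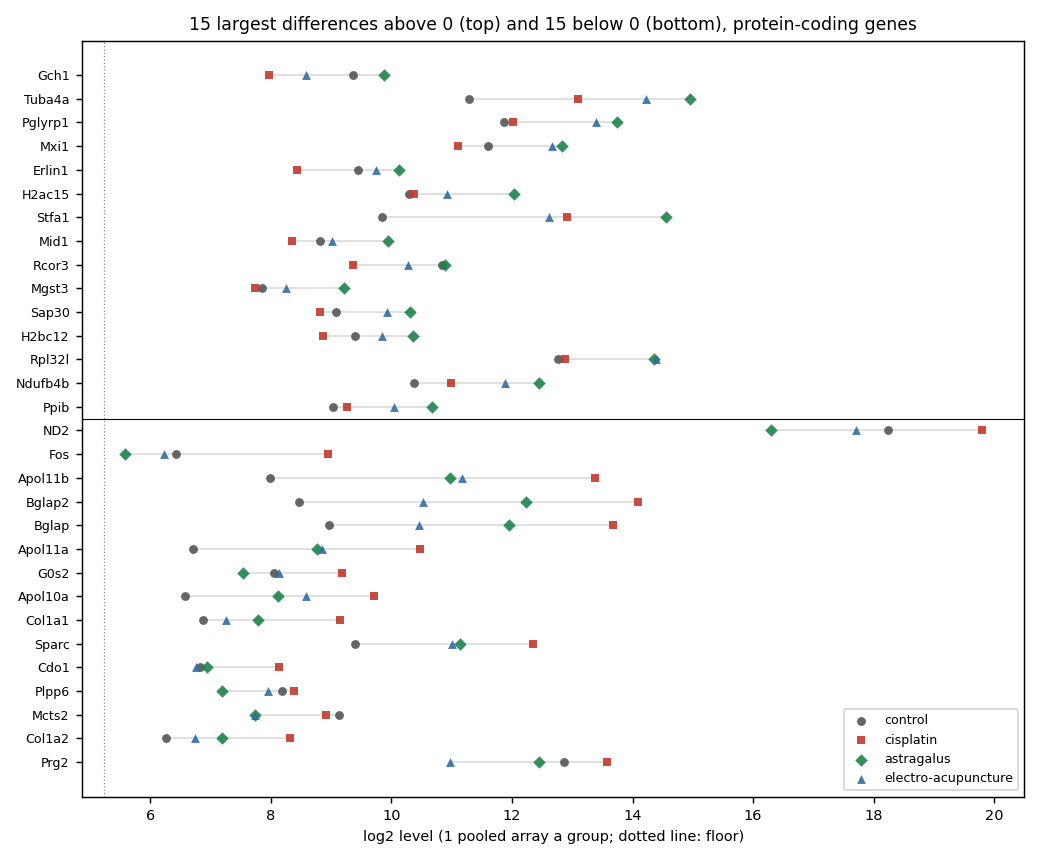
Each row is 1 gene and its 4 points are the log2 levels on the 4 arrays, for the 15 named protein-coding genes with the largest differences above 0 (top) and the 15 with the largest below 0 (bottom); the dotted line is the floor of 5.235. Gch1, Tuba4a and Pglyrp1 head the top rows at 1.90, 1.85 and 1.73, and for every gene of the bottom rows but Mcts2 the cisplatin point is the highest of the 4.

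White cell genes had a median of 0.09 (0.053 with the trend removed), with 93 of 155 higher, 7 at least 2-fold higher (2 with the trend removed) and 1 at least 2-fold lower. The larger differences were in granule genes of neutrophils. Secondary and tertiary granule genes, made by maturing neutrophils, were higher in 21 of 24, with 6 at least 2-fold higher, a median of 0.605 (0.314 with the trend removed) and astragalus the highest array in 19. Pglyrp1, a peptidoglycan-binding protein of these granules, read 11.87, 12.02, 13.75 and 13.40, 3.32-fold higher in astragalus than in cisplatin. The control and cisplatin arrays were low and both other arrays high. Ifitm6, Anxa1, Mmp8, Cybb and Lcn2 followed at 1.25, 1.10, 1.06, 1.05 and 1.04. In Cybb, the catalytic subunit of the phagocyte oxidase, levels were 12.34, 12.24, 13.29 and 12.51, with astragalus alone high, and Lcn2, which binds bacterial iron carriers, read 10.12, 10.55, 11.59 and 10.93. S100a8 and S100a9 lay at the ceiling.

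Primary granule genes, made earlier, were higher in 10 of 14, with no 2-fold member and a median of 0.575 (0.28 with the trend removed). Mpo differed by 0.95, Prtn3 by 0.82 and Elane by 0.73, each above control in cisplatin already. Cebpe, a factor of granule gene expression, differed by -0.36. The median of this list was 0.795 for cisplatin above control and 1.23 for astragalus above control.

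The stefin A genes, cysteine protease inhibitors that lie in a cluster and share sequence, were all above 0. Stfa1 read 9.84, 12.91, 14.56 and 12.61, a difference of 1.65, and 4 of the 6 measured members were at least 2-fold higher (1 with the trend removed). In Stfa1 the cisplatin value was already far above control, and the astragalus value went further the same way. Signal cannot be assigned to 1 member with certainty.

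Pro-B and pre-B genes were higher in 16 of 19, with a median of 0.40 (0.263 with the trend removed) and no 2-fold member. Il7r, the interleukin receptor on which mouse B cell precursors depend, read 10.81, 8.76, 9.47 and 9.05, and Cd79b, part of the B cell receptor, 10.54, 9.22, 9.87 and 9.33. Both lay well below control on all 3 treated arrays, and astragalus was highest of the 3. Over the list cisplatin stood at a median of -1.10 against control and astragalus at -0.67. Mature B cell genes were higher in 8 and lower in 8, with a median of -0.01 (0.10 with each array centred), and Fcrla at 0.78 and Ms4a1, the CD20 antigen, at -0.52 marked the ends.

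Of the plasma cell genes Jchain, the joining chain of secreted antibodies, read 6.58, 7.27, 8.51 and 7.26, a difference of 1.24, with astragalus above the other 3. The list's median was 0.19 over 10 genes, and Tnfrsf17, the plasma cell survival receptor, differed by -0.66. T cell genes had 3 of 12 higher and a median of -0.11, and NK and cytotoxic genes 5 of 11 and -0.15. Cd3d, a chain of the T cell receptor complex, stood out at 0.85, while Cd3e and Cd3g differed by -0.24 and -0.18.

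Monocyte and macrophage genes had 10 of 22 higher and a median of -0.04 (0.07 with each array centred), with Ly6c2, a surface marker of inflammatory monocytes, at 0.86 and Cd14, the endotoxin coreceptor, at -0.75. Dendritic cell and MHC class II genes had a median of 0.01, with Clec9a, a dendritic receptor, at -0.64. Eosinophil, basophil and mast cell genes had a median of -0.01. In that list Prg2, the major basic protein of eosinophils, read 12.87, 13.58, 12.45 and 10.97, 1.13 lower in astragalus than in cisplatin and lower still after electro-acupuncture, while the mast cell protease Cpa3 was 0.88 higher.

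Megakaryocyte and platelet genes had a median of 0.06, which was -0.336 with the trend removed, with 12 higher and 8 lower. They stood above control by a median of 1.26 in cisplatin and 1.38 in astragalus. Pf4, a platelet chemokine, read 15.24 in control and 17.20 on each of the other 3 arrays, and Itgb3, the platelet integrin chain, read 10.50, 12.38, 12.37 and 12.41. Only Tuba4a differed at least 2-fold in this list: the alpha tubulin read 11.28, 13.10, 14.95 and 14.23, 3.60-fold higher in astragalus than in cisplatin. Of 9 tubulins measured off the ceiling 6 were higher, with a median of 0.30; Tuba1a differed by 1.19 and Tubb1, the platelet beta tubulin, by -0.14. Stem and progenitor genes had a median of 0.16 (0.002 with the trend removed), from Sox4 at 0.49 to Meis1 at -0.36.

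**Figure D4:**
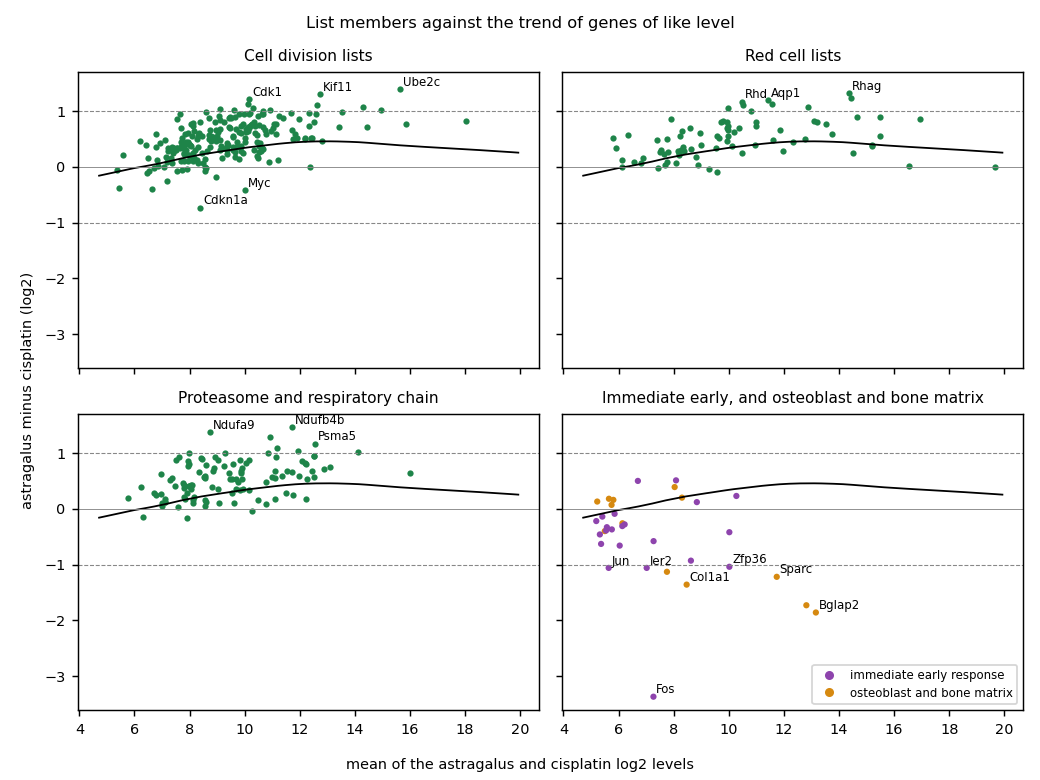
The 4 panels show the cell division lists, the red cell lists, the proteasome with the respiratory chain, and the immediate early with the bone matrix list; each point is 1 gene at the mean of its astragalus and cisplatin log2 levels (horizontal) and its log2 difference (vertical), the line is the fitted trend and the dashed lines are the 2-fold limits. Of the 222 cell division genes 176 lie above the trend, and Fos and the bone matrix genes Bglap2, Col1a1 and Sparc lie below the lower limit.

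Bone matrix, immediate early and apolipoprotein L genes led those lower in the astragalus array. Of the 24 protein-coding genes at least 2-fold lower, 22 were higher in cisplatin than in control, 14 of them at least 2-fold, and 10 were in astragalus above control and 14 below it. Astragalus was the lowest of the 4 arrays in 10, and electro-acupuncture was below cisplatin in 23, by a median of -1.33. Both comparisons use the same cisplatin array, so a high cisplatin value alone would lower both. Among the 104 higher genes cisplatin lay below control in 53 and above it in 51. Astragalus was the highest array in 95 and above control in 102, by at least 2-fold in 65. Over all 11233 protein-coding genes astragalus was highest in 4229 and above control in 6638, by at least 2-fold in 427. The 104 were picked for a high astragalus value against cisplatin, and most were bright. Their counts against the other arrays therefore follow in part from that choice, as do those of the 24 from a high cisplatin value.

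Osteoblast and bone matrix genes split into 6 higher and 7 lower, and 5 of the 13 were at least 2-fold lower in astragalus, as deposited and with the trend removed. The list's median was -0.26 (-0.25 with the trend removed). Bglap2 and Bglap, neighbouring genes for osteocalcin that can share signal, read 8.47, 14.09, 12.23 and 10.53, and 8.96, 13.68, 11.95 and 10.45. Col1a1, which encodes a type I collagen chain, read 6.87, 9.15, 7.79 and 7.25, a difference of -1.36. Sparc, a matrix glycoprotein, read 9.40, 12.35, 11.13 and 11, and Col1a2, the other collagen chain, 6.26, 8.32, 7.19 and 6.74. In all 5 cisplatin was the highest array, control the lowest, and astragalus still stood above control. Other genes of the lineage did not share that pattern: Sp7, the osteoblast transcription factor, differed by 0.07, Bgn, the proteoglycan biglycan, by 0.20 and Ibsp, bone sialoprotein, by -0.40.

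Other cells of the marrow frame differed less. Fat cell genes had 8 of 11 lower and a median of -0.18 (-0.236 with the trend removed), with Fabp4, a fatty acid carrier, at 7.74, 9.76, 9.04 and 8.66. Adipoq, the fat hormone adiponectin, read 6.55, 8.01, 8.11 and 8.63, so it did not follow Fabp4. Niche stroma genes had 13 of 16 higher and a median of 0.175 (0.035 with the trend removed), with Cxcl12, the chemokine that retains stem cells, at 10.91, 12.46, 12.95 and 13.28. Sinusoidal endothelium genes had a median of -0.01 and osteoclast genes of 0.055. Ctsk, the collagen-degrading protease of osteoclasts, had the largest difference of its list at -0.63, at 5.64, 6.83, 6.20 and 6.70.

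Immediate early genes, switched on within minutes by growth factors or stress without new protein synthesis, were lower in 18 of 22, with 4 at least 2-fold lower and a median of -0.38 (-0.32 with the trend removed). Astragalus was the lowest array for 9 of the 22, and for 16.7% of all protein-coding genes. These shares are not matched for level, and dim genes tended to read lower on the astragalus array. Among olfactory receptor genes the share was 55.2%. Fos, a subunit of the AP-1 factor, read 6.43, 8.95, 5.58 and 6.23, 10.3-fold lower in astragalus than in cisplatin, with cisplatin alone high. Zfp36, which binds and destabilizes cytokine mRNA, read 9.87, 10.54, 9.50 and 9.93. Ier2 read 6.65, 7.55, 6.49 and 5.81, and Jun, the partner of Fos, 5.0, 6.17, 5.11 and 5.52, so that its control and astragalus values lie under the floor. Dusp1, a phosphatase that turns off MAP kinases, lay just outside the threshold at -0.93. Going the other way were Klf6 at 0.51 and Mafk at 0.50.

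The Fos and Zfp36 promoters are shown because cAMP response elements and serum response elements are known to drive this class. They come from the same table, build and window, Fos at chr12:85473770-85473909 on the plus strand and Zfp36 at chr7:28379209-28379348 on the minus strand. Capitals mark the core of a cAMP response element (TGACG) in Fos and a CArG box, the core of a serum response element, in Zfp36.
Fos: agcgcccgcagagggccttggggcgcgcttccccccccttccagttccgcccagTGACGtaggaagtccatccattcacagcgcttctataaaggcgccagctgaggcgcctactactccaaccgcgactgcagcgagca
Zfp36: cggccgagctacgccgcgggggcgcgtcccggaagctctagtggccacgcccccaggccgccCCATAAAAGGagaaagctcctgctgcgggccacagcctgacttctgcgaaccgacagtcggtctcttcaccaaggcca
Both were chosen for their match; Jun and Dusp1, looked at in the same window, held none of these motifs there. The core TGACG was in 11 of 19 immediate early promoters (57.9%), against 30.4% of the protein-coding genes compared. Lists on the higher side held it too, in 40.0% of cell division promoters (56.2% in the condensin list) and 21.3% of red cell promoters. The whole element (TGACGTCA) was in 3 of 19 immediate early promoters (15.8%) against 2.98% of the protein-coding genes compared. A CArG box was in 1 of 19 (5.26%) against 1.45%, and the AP-1 motif (TGANTCA) in none of the 19.

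Most other stress lists had medians near 0, whose sign changed with the scaling for cytokine, p53, BCL2, interferon, heat shock and growth factor genes. Inflammatory cytokine and NF-kB genes had 13 of 19 lower and a median of -0.08, with Il1b at -0.77 and Il1a at -0.64, both higher in cisplatin than in control. The p53 targets, the class most tied to DNA damage, had 10 higher and 10 lower and a median of 0.00; Mdm2, which degrades p53, read 9.22, 9.18, 9.31 and 9.11. Platinum crosslink repair genes had 23 of 29 higher and a median of 0.17 (0.077 with the trend removed), led by Uhrf1, a chromatin factor of S phase, at 0.81 and the helicase Blm at 0.72, whereas the Fanconi genes Fancc and Fancg differed by 0.06 and 0.03. BCL2 family genes split 7 and 7, with the pore-forming Bak1 at 0.82.

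Metallothionein and NRF2 genes, which bind metals and clear reactive compounds, were higher in 12 of 16, with a median of 0.605 (0.324 with the trend removed). Gstm1, a glutathione transferase, read 7.88, 9.13, 10.31 and 9.71, a difference of 1.18. Nfe2l2, which encodes NRF2 itself, read 8.23, 8.16, 9.02 and 8.94, and Mt1, a metallothionein, 7.55, 8.42, 9.31 and 9.18. Hmox1, another target of NRF2, differed by -0.27. Interferon-stimulated genes had a median of 0.03, with Rsad2, an antiviral enzyme, at 0.97 and Isg15 at -0.28. Heat shock genes had a median of 0.09 and growth factor receptors and signals of 0.06, with the kinase Pim1 at -0.71.

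Apolipoprotein L genes, whose products resemble pore-forming proteins, had 3 of 5 measured members at least 2-fold lower. Apol11b read 7.99, 13.37, 10.97 and 11.17, Apol11a 6.71, 10.47, 8.76 and 8.84, and Apol10a 6.58, 9.71, 8.11 and 8.58. In all 3 the astragalus and electro-acupuncture values lay between the control and cisplatin values, with control far the lowest. G0s2, an inhibitor of fat breakdown, read 8.05, 9.18, 7.53 and 8.13, a difference of -1.65 with astragalus the lowest array. Cdo1, a cysteine-degrading enzyme, read 6.82, 8.14, 6.94 and 6.76, with cisplatin alone high, and Plpp6, a lipid phosphatase, 8.18, 8.38, 7.19 and 7.95, with astragalus alone low.

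Several leading genes above 0 belong to no list. Mxi1, an antagonist of Myc, read 11.61, 11.11, 12.83 and 12.67, Erlin1, an ER membrane protein, 9.45, 8.44, 10.13 and 9.74, and Rcor3, a chromatin corepressor, 10.84, 9.37, 10.89 and 10.27. The clusters of these genes disagree, and the mean of their clusters gave 0.96, 0.985 and 0.63; Mid1, a ubiquitin ligase, likewise went from 1.60 to 0.92. The replication-dependent histone genes H2ac15 and H2bc12 read 10.29, 10.38, 12.04 and 10.92, and 9.40, 8.87, 10.35 and 9.85, and were the only 2 of 26 measured histone genes at least 2-fold different, in a family with a median of 0.405 (0.273 with the trend removed) and near-identical copies. Mgst3, a membrane glutathione transferase, read 7.85, 7.73, 9.22 and 8.25, and Sap30, a histone deacetylase subunit, 9.08, 8.81, 10.30 and 9.93. In Mgst3 and H2ac15 astragalus stood alone, whereas in Sap30 electro-acupuncture was nearly as high.

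Over all 17208 genes 674 differed at least 2-fold (3.92%): 344 were at least 2-fold higher in astragalus (2.0%) and 330 at least 2-fold lower (1.92%), and the classes of gene differed in which way. The higher share was 51.0% as deposited, 33.7% after quantile normalization, 22.7% with the trend removed, 28.8% with the astragalus array rescaled and 71.8% with each array centred on its median. Families looked at by class were chosen after the values were seen. Antibody heavy and kappa V segments, the variable exons that each B cell joins anew, lay on the higher side. Ribosomal RNA and small nuclear RNA genes lay on the lower side.

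Of 214 V segments 44 were at least 2-fold higher (20.6%) and none was 2-fold lower. The astragalus array was the highest of the 4 for 33.2% of them, against 34.5% of all genes. The 214 also hold V segments that are neither heavy nor kappa. The heavy and kappa sets below were counted by symbol, which takes in segments annotated as pseudogenes, so they are not subsets of the 214. Among 100 heavy chain segments 27 were at least 2-fold higher, with a median of 0.475 (0.353 with the trend removed). Among 65 kappa segments 20 were at least 2-fold higher, with a median of 0.61 (0.579 with the trend removed). The astragalus array was the highest for 45.0% of the heavy and 43.1% of the kappa segments. Ighv3-5 read 5.10, 6.69, 10.90 and 6.32, 18.5-fold higher in astragalus than in cisplatin and far above all other arrays. Igkv16-104 read 7.92, 7.62, 10.46 and 9.79, 7.16-fold higher, with electro-acupuncture high as well. Segments share sequence, so the signal of 1 can include its relatives.

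Of 61 ribosomal RNA genes 55 were at least 2-fold lower, with a median of -2.68, among them n-R5s151, a copy of 5S RNA, at 9.25, 9.91, 6.74 and 7.01. Of 586 small nuclear RNA genes 152 were at least 2-fold lower and 3 higher, with a median of -0.64. These genes are short and have many near-identical copies, so they are not independent readings. Ribosomal protein pseudogenes had 26 of 209 at least 2-fold higher (6 with the trend removed) and none lower, with a median of 0.43 (0.127 with the trend removed). Long noncoding RNAs had 3 of 1088 higher and 7 lower. Of 548 small nucleolar RNAs 12 were at least 2-fold higher (2.19%) and 28 lower (5.11%), with a median of -0.14. With the trend removed the counts were 12 and 41. Members lay far out on both sides, Snord72 at 8.15, 7.05, 9.48 and 9.51 and Snord17 at 15.76, 14.04, 11.63 and 12.74. Olfactory receptor genes had 4 of 154 at least 2-fold lower (2.6%), against 0.214% of protein-coding genes and 1.92% of all genes. Their median was -0.135 (-0.053 with the trend removed). Of these 4, Olfr263 and Olfr303 read 4.62 and 5.0 in astragalus, under the floor. Olfr1346 read 13.13, 13.06, 11.15 and 13.19, where astragalus alone was low.

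**Figure D5:**
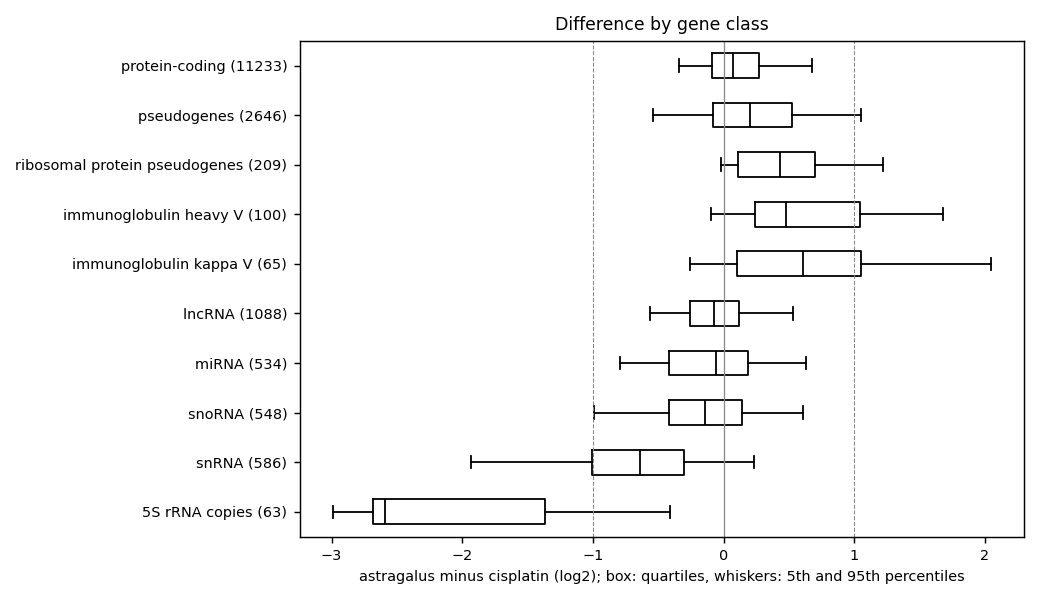
For each class of gene, with its number of genes, the box gives the quartiles and median of the log2 difference, astragalus minus cisplatin, and the whiskers the 5th and 95th percentiles; dashed lines are the 2-fold limits. Kappa V segments have a median of 0.61 and 5S RNA copies of -2.59, against 0.07 for protein-coding genes.

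Among 534 microRNA genes 11 were at least 2-fold higher (2.06%) and 14 lower (2.62%), near the 2.0% and 1.92% of all genes, and with the trend removed 8 and 22; 20 of these 25 had a mature sequence in the RefSeq table. The mature sequences of 3 are shown, with the seed, bases 2 to 8, in capitals, because the seed sets which mRNAs a microRNA pairs with; the clusters read the hairpin or its precursor and not a given arm. On GRCm38.p6 they come from Mir378c, mature at chr14:46954905-46954925 on the minus strand, Mir505, at chrX:60394416-60394437 and chrX:60394451-60394473 on the minus strand, and Mir142, at chr11:87756867-87756887 and chr11:87756903-87756925 on the plus strand.
miR-378c: aCUGGACUuggagucagaagc
miR-505-3p: cGUCAACAcuugcugguuuucu
miR-505-5p: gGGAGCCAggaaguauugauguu
miR-142a-5p: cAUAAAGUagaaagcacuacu
miR-142a-3p: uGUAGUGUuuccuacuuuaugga
No seed is shared among these 5. Mir142, abundant in blood cells, read 7.18, 7.53, 6.16 and 7.47, a difference of -1.37 with astragalus alone low. Mir505 read 7.73, 7.52, 9.29 and 8.46, a difference of 1.77 with astragalus the highest array. Mir378c read 8.40, 6.14, 7.94 and 7.09, a difference of 1.80 that was 0.67 in the mean of its clusters.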

How the data were processed

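The deposited values are log2 signals per transcript cluster, made with Affymetrix Expression Console per the submitters' processing notes; the sources used here name neither its version nor how probes were summarised, and the log2 scale was read from the values. Of 65956 clusters 32750 were in the platform's gene table, 31258 with 1 gene, 1492 with several, from which no gene was named, and 33206 were unlisted. RefSeq tables of GRCm38.p6 updated the symbols and gave promoters and microRNAs. Differences were taken with pandas 2.3.3 and numpy 2.4.6 in Python 3.11.15, the trend was fitted by loess in statsmodels 0.14.6 (span 0.3, 3 robust steps) and figures were drawn with matplotlib 3.10.9. The steps were tested on simulated data, where trend removal understated large differences and missed many set at exactly 2-fold; the tolerance of that test was widened after its first run.

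The genes named are the 15 protein-coding genes with the largest difference each way (passing over unnamed gene models, antigen receptor segments, olfactory and vomeronasal receptors and genes within 0.1 of the ceiling), up to 4 members of each of 59 lists, the 4 largest noncoding genes each way, and Gapdh, Actb, Alas2, Epor, Kit, Mpo, Cdkn1a and Mdm2. Others named, such as list members that contrast with these, V segments, small RNAs and Cdkn3, were chosen after their values were seen. All lists, members and rules were chosen with earlier results of these data known. Of the 59 lists 57 had at least 5 genes above the floor and off the ceiling. The number of arrays, 1 per group, limits the precision. Alternatives were quantile normalization, trend removal, rescaling, median centring, other filters on low values, the mean of a gene's clusters and a log2 difference of 1.5.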

Additional observations from a re-analysis of the deposited data

Results flagged for a closer look

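Clusters that the platform's gene table does not name entered no comparison above. Of 14582 such clusters above the floor, 438 were at least 2-fold higher in astragalus than in cisplatin. Another 246 were at least 2-fold lower (4.69% either way, against 3.92% of all genes compared). Of the 438 higher clusters 377 also stood above the control array, which a choice by a high astragalus value favours. The unnamed clusters lie outside the measured genes and carry signal there, which is why they are listed. What they are was not analysed here.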

How the results depend on the processing

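With 1 array per group nothing could be left out in turn. No paired analysis was possible because each group has 1 array. As deposited, 128 protein-coding genes passed 2-fold, 104 on the higher side and 24 on the lower. Quantile normalization gave 73 and 42 higher, the loess trend removed 56 and 21 higher, the rescaled astragalus array 53 and 25 higher, and a loess fitted over all clusters, chosen after seeing the data, 66 and 33 higher; each of these higher sets lay within the 104. Centring on medians gave 228 and 209 higher, 104 of them shared. No filter on low values gave 43 lower. A log2 difference of 1.5 left 18, with 9 higher and 9 lower, and 191 among all genes. Of the 24 lower genes 23, 23, 23, 24 and 19 were kept, in the order of the 5 scalings above. All of these scalings but centring lower bright astragalus values, which favours keeping lower genes over higher ones. Centring raises the astragalus values, and it kept all 104 higher genes. These counts therefore do not show which direction depended less on scaling. Of 31 lists with a median of at least 0.25 in size, 277 of 279 medians over the alternatives kept their direction; the cytosolic ribosomal proteins reversed, to -0.055 with the trend removed and -0.006 after rescaling. Of 57 lists, 17 had medians on both sides of 0 over the settings, and 16 of these had a median under 0.25 in size, such as megakaryocyte and platelet, p53 targets and heat shock. The osteoblast median was -1.22 with the filter at the 75th percentile. Of 734 pairs of a named 2-fold gene and an alternative, 586 stayed at least 2-fold, 148 were under it in the same direction and 0 reversed. These genes were chosen for a difference of at least 1, and the filters on low values leave a gene's difference unchanged. The lack of reversals therefore says little about how stable they are.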
